A study of Mus musculus with 24 samples.

Results

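JAK-STAT3 signalling carries the signal of the interleukin-6 (IL-6) family of cytokines, and 8 of its genes were followed here: Il6ra, Il6st, Lifr, Jak1, Jak2, Tyk2, Stat3 and Socs3. They were chosen by symbol from the 32728 genes of the 8 deposited tables, and all 8 are in each table. RNA was sequenced from mouse neuron and astrocyte cultures in 8 groups of 3 libraries, 24 in all. All cultures came from Perk loxP/loxP mice, and all had received a lentivirus in the dish. Perk KO cultures had received active Cre recombinase, which removes DNA between loxP sites, and WT cultures the inactive ΔCre. The gene Eif2ak3 encodes PERK, a kinase of the endoplasmic reticulum (ER) that slows translation when unfolded proteins build up. Tunicamycin (TM) blocks N-linked glycosylation and so causes such ER stress. Per the labels' protocols, cultures were exposed to 5 µg/mL TM on day 14 in vitro, for 24 hours, or to DMSO as the control. The study's design text gives the exposure as 20 to 24 hours. For each cell type the groups were Perk KO with TM, Perk KO control, WT with TM and WT control. The promoter of the virus, the number of animals and the share of transduced cells are not given in the sources used here.

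A cytokine of the IL-6 family binds its own receptor chain, such as IL6RA or LIFR, and brings it together with the shared chain gp130, the product of Il6st. The kinases JAK1, JAK2 and TYK2 sit on the inner end of gp130 and phosphorylate STAT3, which then enters the nucleus as a transcription factor. Socs3 is a target gene of STAT3 whose product binds gp130 and JAKs and shuts the pathway down. In astrocytes the pathway is known for its part in astrocyte differentiation, in reactive gliosis and in the induction of Gfap, and in neurons for responses to injury.

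The members did not move as a block. In WT cultures of both cell types, TM was accompanied by lower Stat3, Lifr and Socs3 RNA, with Lifr 4.19-fold and Stat3 2.8-fold lower in astrocytes. In Perk KO cultures Lifr was not called with TM in either cell type, Stat3 fell less in astrocytes and rose in neurons, and Socs3 was called in astrocytes but not in neurons. Il6st and Tyk2 rose with TM in neurons of both genotypes. Jak1 and Jak2 were lower and Stat3 and Lifr higher in TM-treated Perk KO than in TM-treated WT astrocytes. In TM-treated neurons, Stat3, Lifr and Socs3 were higher in Perk KO than in WT.

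RefSeq sequences of the 250 bases before the start site (GRCm38.p6) were found for 8 of 8 members, at 9 start sites. Those of Stat3, Lifr and Socs3 are printed because these genes changed most, 5′ to 3′ on the strand of the gene, without the bases that GENCODE M21 places in an exon of the same gene. Capitals mark a match to the STAT motif TTCNNNGAA, searched on both strands.
Stat3, chr11:100939541-100939790, minus strand: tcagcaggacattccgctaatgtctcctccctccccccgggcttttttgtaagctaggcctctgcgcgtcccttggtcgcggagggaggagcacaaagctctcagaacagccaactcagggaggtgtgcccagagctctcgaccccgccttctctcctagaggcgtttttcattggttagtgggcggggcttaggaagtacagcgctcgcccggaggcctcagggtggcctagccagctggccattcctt
Lifr, chr15:7129322-7129558, plus strand: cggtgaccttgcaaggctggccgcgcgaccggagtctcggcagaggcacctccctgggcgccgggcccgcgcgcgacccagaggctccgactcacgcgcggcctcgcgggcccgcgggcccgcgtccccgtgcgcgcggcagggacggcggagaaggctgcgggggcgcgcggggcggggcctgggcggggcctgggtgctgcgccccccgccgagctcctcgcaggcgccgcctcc
Socs3, chr11:117969452-117969616, minus strand: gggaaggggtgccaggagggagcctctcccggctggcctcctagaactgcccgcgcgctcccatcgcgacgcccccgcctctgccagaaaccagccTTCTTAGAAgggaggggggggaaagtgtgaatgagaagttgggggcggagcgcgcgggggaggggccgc
The match TTCTTAGAA in Socs3 lies at -154 to -146 from the RefSeq start, and no other member window held the STAT motif, against 7.02% of 32851 mouse windows of this length. The motif reads the same on both strands. The core of a site bound by ATF4 and CHOP (TGATGNAA, in 3.45% of windows) and the ER stress response element (CCAAT and CCACG with 9 bases between them, in 0.113%) were searched on both strands and matched in 0 of the 9 windows. The Stat3 window ends at the start of the gene in the deposited tables. The RefSeq starts of Socs3 and of this Lifr window lie 681 and 38958 bases inside the gene as deposited, so these windows stand for 1 start among several. A match is a string of letters and no evidence of binding, and its absence covers these windows alone.

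The libraries held 16 to 25.9 M counts each. Eif2ak3 was lower in every Perk KO library than in every WT library of the same cell type and treatment, with log2 differences of -3.44 ± 0.18 (TM) and -2.73 ± 0.12 (control) in neurons and of -2.66 ± 0.17 (TM) and -1.94 ± 0.14 (control) in astrocytes. Sample titles speak of biological replicates but name no cultures or animals. The p-values therefore measure only how far these libraries spread, and that spread may be technical. Summed levels of 10 neuron markers were 3284 to 7528 CPM (counts per M counts) in neuron cultures and 242 to 441 CPM in astrocyte cultures. Summed levels of 10 astrocyte markers were about as high in control neuron cultures, at 3305 to 4390 CPM, as in control astrocyte cultures, at 2338 to 4318 CPM. With TM, the astrocyte markers summed to 3296 to 4278 CPM in Perk KO neuron cultures and to 959.5 to 1056 CPM in WT neuron cultures, and to 1934 to 2609 CPM in Perk KO astrocyte cultures and to 641 to 730 CPM in WT astrocyte cultures. In such bulk RNA, fewer cells of a type and less RNA per cell cannot be told apart.

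Levels below are CPM, scaled over all 24 libraries with TMM, a method that sets most genes level between libraries. Log2 differences (± SE) and Benjamini-Hochberg adjusted p-values come from edgeR's quasi-likelihood test over all genes tested, with its own TMM scaling of the libraries compared, and a gene was called at an adjusted p under 0.05. For WT neurons the CPM scale shifts TM-treated libraries against controls by -0.15 (log2) relative to the test's scale. For the other comparisons between 2 groups the shift lies between -0.05 and 0.03. A log2 difference is that of the group named first over the second. Comparisons that name the same group share its libraries.

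Per length, the 8 RNAs spanned more than an order of magnitude in both cell types. In WT control neurons, Jak1 was highest at 31.5 ± 2.04 CPM per kb of the deposited gene length (mean ± SD, n = 3), followed by Stat3 at 18.4 ± 2.87. Il6st (11.4 ± 0.824) and Jak2 (8.39 ± 2.56) came next and overlapped over their libraries. Socs3, Lifr and Tyk2 had 2.76 ± 0.909, 2.09 ± 0.498 and 2.02 ± 0.107 CPM per kb, each overlapping its neighbour, and Il6ra was lowest at 0.643 ± 0.113. In WT control astrocytes, Il6st and Stat3 had the highest means at 32.5 ± 4.66 and 32.1 ± 3.05 CPM per kb, and Jak1 (26.8 ± 0.678) and Jak2 (24.6 ± 4.06) came next. Over their libraries Jak1 and Jak2 overlapped each other and Il6st, but not Stat3. Socs3 (12.2 ± 1.79), Tyk2 (4.3 ± 0.637), Il6ra (3.2 ± 0.145) and Lifr (1.54 ± 0.0591) followed without overlap. With TM, Stat3 stood in WT astrocytes at 11.6 ± 1.31 CPM per kb, below Jak2 (36.8 ± 2.89), Il6st (35.8 ± 3.15) and Jak1 (32.6 ± 2.61), which overlapped in this order, and Lifr stood last at 0.372 ± 0.071. In TM-treated WT neurons the order began with Jak1 (26.6 ± 0.657) and Il6st (16.4 ± 0.115), and Stat3 (11.1 ± 1.14) and Jak2 (10.8 ± 1.86) overlapped.

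**Figure D1:**
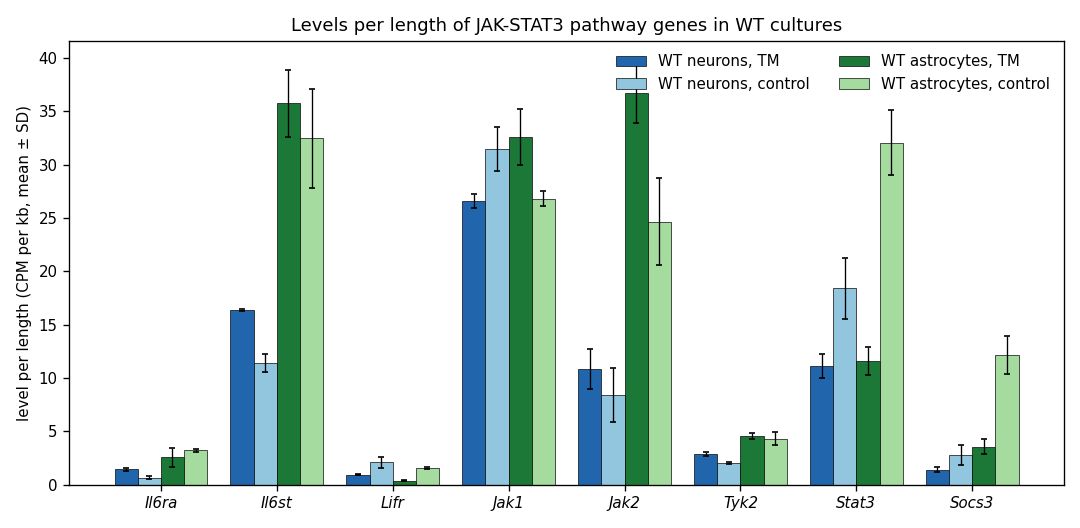
Mean level per length (CPM per kb, bars, with SD over 3 libraries) of the 8 genes in WT cultures. In astrocytes Stat3 stands near Il6st in controls, and with TM it stands well below Il6st, Jak1 and Jak2.

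Of the 8 members, 2 were higher and 6 lower in WT control neurons than in WT control astrocytes, where 35.8% of 15817 genes were higher and 35.2% lower. Il6ra was lowest in neurons by the test, with a log2 difference of -2.28 ± 0.17 (adjusted p = 2.75e-06), and Socs3 followed at -2.10 ± 0.23 (adjusted p = 4.1e-05). Jak2, Il6st, Tyk2 and Stat3 were lower by -1.52 ± 0.22, -1.47 ± 0.13, -1.05 ± 0.15 and -0.76 ± 0.14, with adjusted p-values of at most 0.0009. Jak1 (0.27 ± 0.10, adjusted p = 0.036) and Lifr (0.48 ± 0.18, adjusted p = 0.0417) were higher in neurons. These last 2 calls were lost without any 1 of 4 of the 6 libraries. For Jak1 these were replicate 2 of the neurons and each astrocyte library, with adjusted p-values of 0.0546 to 0.103, and for Lifr replicate 3 of the neurons and each astrocyte library, with 0.0662 to 0.122. With GC correction the Jak1 difference was 0.16 (adjusted p = 0.159), and with no filter on low counts it was 0.24 (adjusted p = 0.145). The fit has no way to set apart neurons and the astrocytes among them.

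**Figure D2:**
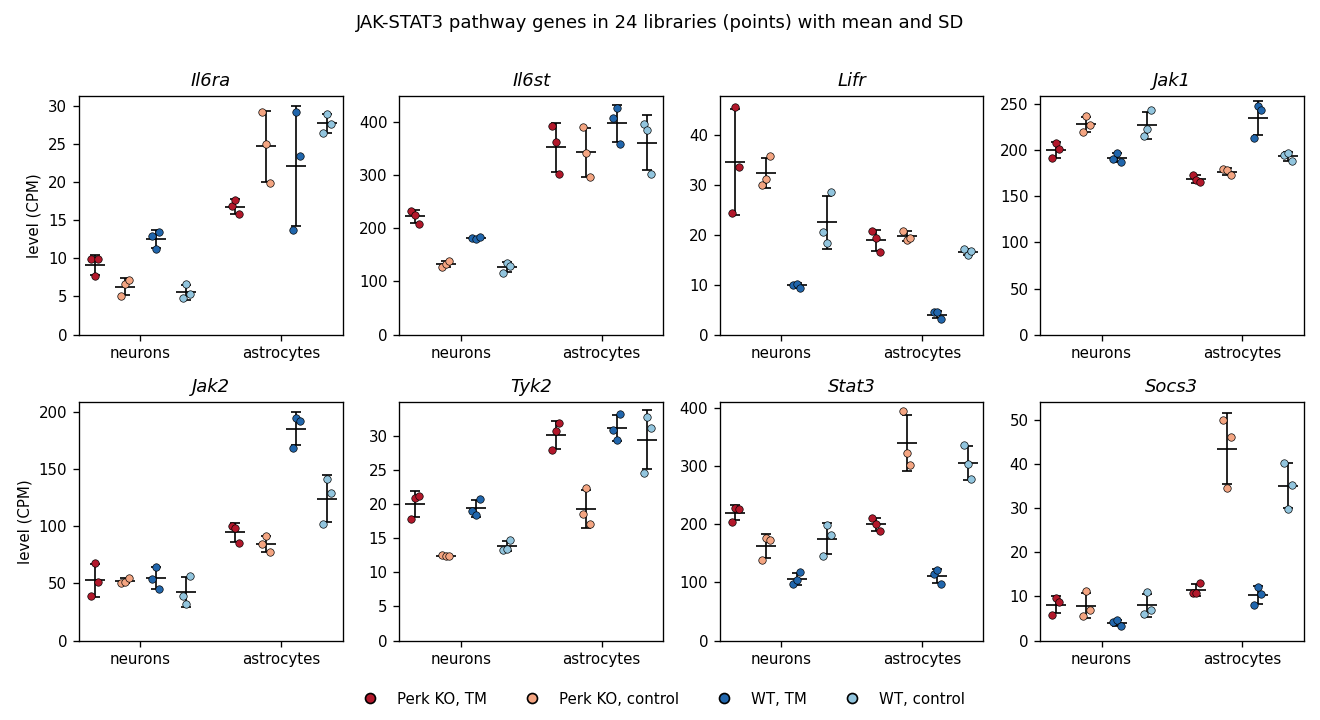
Level (CPM, y axis from 0) of each gene in each of the 24 libraries (points), with the mean and SD of each group of 3, neurons on the left and astrocytes on the right of each panel. Lifr is low in TM-treated WT cultures of both cell types and not in TM-treated Perk KO cultures, whereas Socs3 is low in TM-treated astrocytes of both genotypes.

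In Perk KO cultures with TM, 3 members were higher and 0 lower in neurons, where 13.1% of 16197 genes were higher and 10.8% lower, and 1 was higher and 2 lower in astrocytes, where 5.73% of 15164 genes were higher and 4.33% lower. In WT cultures with TM, 3 were higher and 3 lower in neurons, where 27% of 15546 genes were higher and 24.8% lower, and 1 was higher and 3 lower in astrocytes, where 25% of 14907 genes were higher and 27.7% lower. Between TM-treated Perk KO and WT cultures, 3 were higher and 0 lower in neurons, against 20.7% and 19.4% of 16026 genes, and 2 were higher and 2 lower in astrocytes, against 32.1% and 31.2% of 14927 genes. Between control Perk KO and WT cultures, 1 was higher and 0 lower in neurons, against 12.2% and 9.16% of 15757 genes, and 0 were higher and 2 lower in astrocytes, against 4.71% and 10.2% of 15196 genes. The median log2 difference of the 8 members lay between -0.14 and 0.31 in these 8 comparisons, and that of all genes between -0.01 and 0.04. The astrocyte libraries of a replicate number deviated together from their groups, as did neuron libraries of the 2 genotypes under the same treatment. Values with the replicate number as a block are therefore given where they change the call of a member. For the gene lists further below, counts with the block are given only in part, and some of the counts not given changed too. With the block, 4299 genes were called for TM in Perk KO astrocytes against 1526 without it, and 5731 against 2260 for genotype in control astrocytes.

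Il6ra encodes the IL-6 binding chain and rose with TM in WT neurons. It had 12.9, 11.2 and 13.5 CPM in TM-treated WT neurons, against 4.75, 6.65 and 5.27 CPM in WT controls. The groups did not overlap, and the log2 difference was 1.32 ± 0.17 (adjusted p = 0.000297). TM-treated Perk KO neurons had 9.87, 7.66 and 9.92 CPM, against 5.06, 6.64 and 7.15 CPM in Perk KO controls. Each treated library was above each control here too, but the log2 difference of 0.60 ± 0.20 did not pass (adjusted p = 0.0646), whereas it did with DESeq2 (0.59, adjusted p = 0.0432) and, with edgeR, without replicate 2 of the treated group (0.71, adjusted p = 0.0218). TM-treated Perk KO neurons against TM-treated WT neurons differed by -0.48 ± 0.17 (adjusted p = 0.0581), and this passed with the replicate block (-0.49, adjusted p = 0.0284), with the block and a correction for GC content (-0.42, adjusted p = 0.0373) and when replicate 1 of the Perk KO libraries was left out (-0.55, adjusted p = 0.0391).

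In astrocytes, Il6ra had 16.8, 17.7 and 15.8 CPM in TM-treated Perk KO cultures, against 29.2, 24.9 and 19.9 CPM in Perk KO controls. No treated library reached a control, with a log2 difference of -0.55 ± 0.16 that did not pass (adjusted p = 0.0579). It passed with DESeq2 (-0.56, adjusted p = 0.0173), with no filter on low counts (-0.56, adjusted p = 0.0307), with the replicate block (-0.54, adjusted p = 0.00175) and when replicate 3 of the controls was left out (-0.68, adjusted p = 0.0193). TM-treated WT astrocytes had 13.7, 29.2 and 23.4 CPM, against 26.4, 29 and 27.7 CPM in WT controls. The first TM-treated WT library was low and the others were near the controls (-0.35 ± 0.24, adjusted p = 0.255). Without that library, TM-treated Perk KO astrocytes were below TM-treated WT astrocytes by -0.63 (adjusted p = 0.00377), against -0.37 ± 0.25 (adjusted p = 0.214) with it. An antisense gene, Gm42809, shares 242 exon bases with Il6ra but had only 74 counts over the 24 libraries, against 7024 for Il6ra.

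Il6st, the shared chain gp130, rose with TM in neurons of both genotypes and showed no call in astrocytes. TM-treated Perk KO neurons had 233, 225 and 208 CPM, against 127, 132 and 139 CPM in Perk KO controls. TM-treated WT neurons had 181, 181 and 183 CPM, against 116, 134 and 129 CPM in WT controls. All treated libraries were above all controls, with log2 differences of 0.80 ± 0.09 in Perk KO (adjusted p = 0.00113) and 0.67 ± 0.08 in WT (adjusted p = 0.000161). The 3 Perk KO libraries with TM were also above the 3 WT libraries with TM, a difference of 0.26 ± 0.09 that did not pass (adjusted p = 0.052), and that passed with the replicate block (0.26, adjusted p = 0.0457), with DESeq2 (0.27, adjusted p = 0.0398) and with GC correction (0.30, adjusted p = 0.0189). In astrocytes Il6st had 393, 362 and 302 CPM in Perk KO cultures with TM, against 390.0, 341 and 297 CPM in Perk KO controls. WT astrocytes had 407, 426 and 358 CPM with TM, against 396, 385 and 301 CPM in controls. All these groups overlapped, and the TM responses were 0.05 ± 0.13 in Perk KO (adjusted p = 0.879) and 0.12 ± 0.14 in WT (adjusted p = 0.499).

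Lifr encodes the receptor chain for leukaemia inhibitory factor (LIF), which pairs with gp130, and its response to TM depended on genotype in both cell types. The level was 20.7, 19.5 and 16.6 CPM in TM-treated Perk KO astrocytes, against 20.8, 19 and 19.3 CPM in Perk KO controls. In WT astrocytes it was 4.43, 4.47 and 3.13 CPM with TM, against 17.1, 15.9 and 16.7 CPM in controls. The treated WT libraries were far below all other astrocyte libraries, whereas the Perk KO groups overlapped. The response was -0.05 ± 0.13 in Perk KO (adjusted p = 0.878) and -2.07 ± 0.19 in WT (adjusted p = 0.000113), and the Perk KO response minus the WT response was 1.99 ± 0.21 (adjusted p = 3e-05). With TM, Perk KO astrocytes were 4.81-fold above WT astrocytes (2.27 ± 0.19, adjusted p = 2.76e-05). Control Perk KO astrocytes differed from WT controls by 0.25 ± 0.12, which did not pass (adjusted p = 0.172).

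Neuron cultures also had their lowest Lifr levels in TM-treated WT. The level was 24.5, 45.7 and 33.6 CPM in TM-treated Perk KO neurons, against 30.1, 31.2 and 35.8 CPM in Perk KO controls. In WT neurons it was 9.93, 10.2 and 9.39 CPM with TM, against 20.7, 18.3 and 28.6 CPM in controls. The treated WT libraries were again the lowest, and the treated Perk KO libraries spread widely around their controls. The response was 0.14 ± 0.21 in Perk KO (adjusted p = 0.659) and -1.04 ± 0.18 in WT (adjusted p = 0.00144), a difference of 1.16 ± 0.30 (adjusted p = 0.0129), and with TM the Perk KO neurons were 3.41-fold above WT (1.77 ± 0.21, adjusted p = 0.000394). Control Perk KO neurons were higher than WT controls by 0.56 ± 0.17 (adjusted p = 0.0484). That call was lost without any library other than replicate 3 of the WT controls, with adjusted p-values of 0.0842 to 0.165, and with GC correction (0.40, adjusted p = 0.0506). The WT fall was deeper in astrocytes than in neurons, by 0.85 ± 0.26 as neurons minus astrocytes (adjusted p = 0.0306). This last call was lost without any 1 of 5 of the 12 libraries, namely replicates 1 and 2 of the WT control neurons, replicates 1 and 2 of the TM-treated WT neurons and replicate 3 of the TM-treated WT astrocytes, with adjusted p-values of 0.0601 to 0.072.

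Markers of several cell types moved with Lifr in part. In neuron cultures, 9 of 10 astrocyte markers fell with TM in WT, 3 rose and 1 fell in Perk KO, and all 10 were higher in TM-treated Perk KO than in TM-treated WT. Of all genes, 24.8% fell in WT neurons, and 13.1% rose and 10.8% fell in Perk KO neurons. With TM, 20.7% of all genes were higher in Perk KO than in WT neurons. In astrocyte cultures, 8 of 10 fell in WT, 4 fell in Perk KO and 9 were higher in TM-treated Perk KO than in TM-treated WT. The shares over all genes were 27.7%, 4.33% and 32.1%, in the same order. Perk KO astrocytes differed in that their astrocyte markers summed to 1934 to 2609 CPM with TM, against 3215 to 4318 CPM in controls, while Lifr was not called. Gfap, 1 of the 10 markers, is also in the list of reported STAT3 targets further below. It was 1 of the 4 that fell there, by -3.56 ± 0.29 (adjusted p = 0.000118), and the sum was not taken without it. None of the 10 was at 0 in any group.

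Summed levels of 10 markers of the oligodendrocyte lineage were 299 to 361 CPM in TM-treated Perk KO neurons, against 383 to 449 CPM in Perk KO controls, and 116 to 162 CPM in TM-treated WT neurons, against 504 to 579.8 CPM in WT controls. In astrocyte cultures they were 473 to 547 CPM in Perk KO with TM, against 468 to 549 CPM in Perk KO controls, and 100.4 to 105 CPM in WT with TM, against 396 to 419 CPM in WT controls. Like Lifr, these sums were lowest in TM-treated WT cultures, as was the mean sum of every other marker list in both cell types. The oligodendrocyte lineage sums overlapped between Perk KO astrocyte groups, as Lifr did. They did not overlap between Perk KO neuron groups, where Lifr did. Of the oligodendrocyte lineage markers tested, 0 rose and 4 of 6 fell with TM in WT astrocytes, against 25% and 27.7% of all genes. In Perk KO astrocytes 1 rose and 2 of 7 fell, against 5.73% and 4.33% of all genes. In neuron cultures 1 rose and 8 of 9 fell in WT, against 27% and 24.8% of all genes. In Perk KO neurons 0 rose and 1 of 9 fell, against 13.1% and 10.8% of all genes. Sox10 and Mag were at 0 in TM-treated WT astrocytes. Summed levels of 8 fibroblast and mural markers, none of them at 0 in a group, were 519 to 710.0 CPM in TM-treated Perk KO astrocytes, against 1030.0 to 1552 CPM in Perk KO controls, and 341 to 435 CPM in TM-treated WT astrocytes, against 1072 to 1213 CPM in WT controls. The part of these marker lists in the results for Lifr and Stat3 was not tested.

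Jak1 encodes the kinase on which most gp130 signalling depends, and edgeR called it in 1 of the 8 comparisons of treatment or genotype. TM-treated Perk KO astrocytes had 174, 168 and 166 CPM, against 179.7, 178 and 173 CPM in Perk KO controls. WT astrocytes had 214, 248 and 244 CPM with TM, against 195, 198 and 188 CPM in controls. The treated WT libraries were the highest of the astrocyte libraries. With TM, Perk KO astrocytes were below WT by -0.45 ± 0.10 (adjusted p = 0.00424). The TM response in WT astrocytes was 0.26 ± 0.10 (adjusted p = 0.0576), which passed with DESeq2 (0.27, adjusted p = 0.0334), with the replicate block (0.26, adjusted p = 0.0169) and when replicate 1 of the treated libraries was left out (0.34, adjusted p = 0.0184). The Perk KO response, -0.06 ± 0.08 (adjusted p = 0.75), was lower than that of WT by -0.35 ± 0.12 (adjusted p = 0.0354), a call lost without any library other than replicate 1 of the TM-treated WT and replicate 3 of the control Perk KO astrocytes (adjusted p of 0.0551 to 0.0756) and with no filter on low counts (adjusted p = 0.126).

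In neurons, Jak1 had 192, 208 and 202 CPM in TM-treated Perk KO cultures, against 221, 237 and 227 CPM in Perk KO controls, and 191, 197 and 188 CPM in TM-treated WT cultures, against 215, 223 and 244 CPM in WT controls. On this CPM scale every treated library was below its controls. The test gave -0.13 ± 0.08 in Perk KO (adjusted p = 0.281) and -0.09 ± 0.08 in WT (adjusted p = 0.34), and neither passed. The WT response of neurons minus that of astrocytes was -0.53 ± 0.13 (adjusted p = 0.00887), which did not pass with no filter on low counts (-0.39, adjusted p = 0.169).

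Jak2, a second receptor kinase that also serves many other cytokine and hormone receptors, was high in WT astrocytes and rose there with TM. TM-treated Perk KO astrocytes had 99.8, 98.5 and 85.1 CPM, against 84.3, 91 and 77.1 CPM in Perk KO controls. WT astrocytes had 168, 194 and 192 CPM with TM, against 101, 141 and 129 CPM in controls. Every WT library was above every Perk KO library of either treatment. The TM response was 0.56 ± 0.13 in WT (adjusted p = 0.00945) and 0.18 ± 0.10 in Perk KO (adjusted p = 0.361), and the responses differed by -0.41 ± 0.18, which did not pass (adjusted p = 0.0931), but passed with the replicate block (-0.41, adjusted p = 0.0306) and when replicate 2 of the WT controls was left out (-0.51, adjusted p = 0.0475). Perk KO astrocytes were below WT by -0.94 ± 0.11 with TM (adjusted p = 0.000148) and by -0.56 ± 0.14 in controls (adjusted p = 0.032). The control difference was lost without any library other than replicate 1 of the WT controls (adjusted p of 0.0724 to 0.128).

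In neurons edgeR did not call Jak2 in any of the 4 comparisons of treatment or genotype. TM-treated Perk KO neurons had 38.8, 67.7 and 51 CPM, against 50.6, 51.2 and 54.7 CPM in Perk KO controls. WT neurons had 54, 64.1 and 45.4 CPM with TM, against 38.6, 31.5 and 56.5 CPM in controls. The groups overlapped, and replicate 3 of the WT controls was above the others of its group. The WT response was 0.52 ± 0.21 (adjusted p = 0.0718). It passed with DESeq2 (0.49, adjusted p = 0.0365), with GC correction (0.42, adjusted p = 0.043) and with no filter on low counts (0.52, adjusted p = 0.011). In the authors' deposited table it was 0.49 (adjusted p = 0.0419). Without that control library it was 0.75 (adjusted p = 0.0038), and the Perk KO controls were above the WT controls by 0.65 (adjusted p = 0.00147), against 0.34 ± 0.19 (adjusted p = 0.233) with it.

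Tyk2, the third JAK that associates with gp130, rose with TM in 3 of the 4 cultures. TM-treated Perk KO neurons had 17.8, 21 and 21.3 CPM, against 12.5, 12.5 and 12.4 CPM in Perk KO controls, and TM-treated WT neurons had 19.1, 18.4 and 20.8 CPM, against 13.3, 13.5 and 14.7 CPM in WT controls. The treated and control libraries did not overlap in either genotype. The log2 differences were 0.73 ± 0.12 in Perk KO (adjusted p = 0.00519) and 0.64 ± 0.12 in WT (adjusted p = 0.00242). TM-treated Perk KO astrocytes had 28, 30.7 and 31.9 CPM, against 18.5, 22.4 and 17 CPM in Perk KO controls, with a log2 difference of 0.65 ± 0.13 (adjusted p = 0.0138) that did not pass without replicate 2 of the treated libraries (0.64, adjusted p = 0.0651). TM-treated WT astrocytes had 31, 29.5 and 33.3 CPM, against 24.5, 32.8 and 31.2 CPM in WT controls, which overlapped (0.07 ± 0.13, adjusted p = 0.699). The Perk KO controls were the lowest astrocyte group, below WT controls by -0.61 ± 0.16 (adjusted p = 0.0374), and the Perk KO response was higher than that of WT by 0.56 ± 0.19 (adjusted p = 0.0365). The call of the control difference was lost without any library other than replicate 1 of the WT controls, at log2 differences of -0.73 to -0.52 (adjusted p of 0.0607 to 0.153). The call of the difference between responses was lost without any library other than replicate 1 of the WT controls, replicate 3 of the TM-treated WT, replicate 2 of the control Perk KO and replicate 1 of the TM-treated Perk KO astrocytes, at 0.48 to 0.55 (adjusted p of 0.0515 to 0.0909). It was also lost with GC correction (0.39, adjusted p = 0.141), with GC correction and the replicate block (0.39, adjusted p = 0.0661) and with no filter on low counts (0.56, adjusted p = 0.0625).

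**Figure D3:**
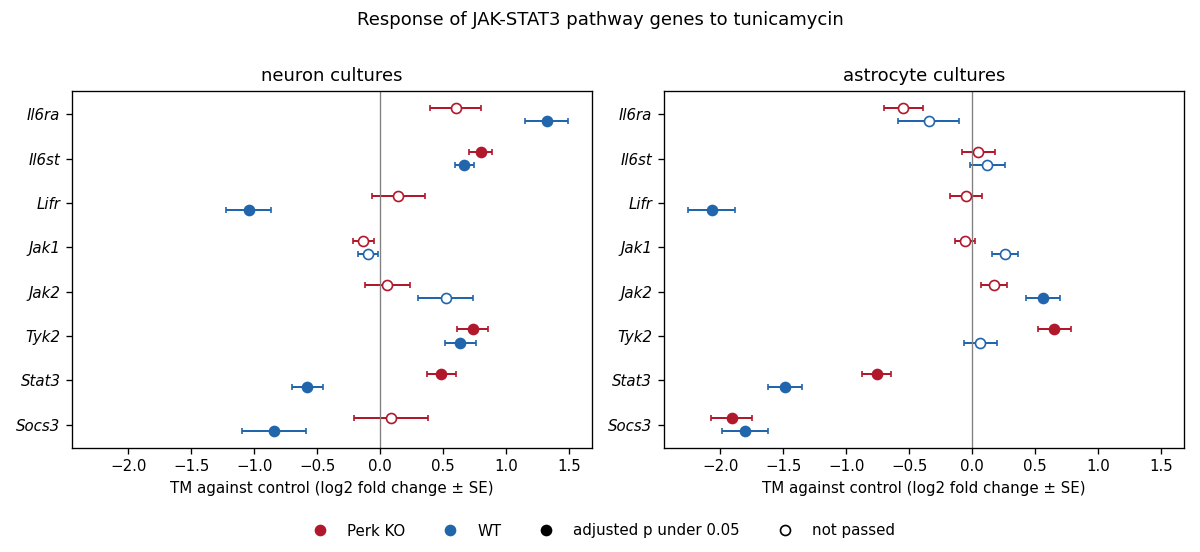
Log2 fold change of TM over control (x axis, with SE as bars) for each gene in Perk KO (red) and WT (blue) cultures, neurons left and astrocytes right, filled where the edgeR adjusted p was under 0.05. Stat3 lies at 0.48 in Perk KO and -0.58 in WT neurons, and at -0.76 in Perk KO and -1.48 in WT astrocytes.

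Stat3, the transcription factor of the pathway, passed the test in both TM comparisons of both cell types, and its direction in neurons depended on genotype. The level was 204, 228 and 225 CPM in TM-treated Perk KO neurons, against 138, 177 and 172 CPM in Perk KO controls. In WT neurons it was 96.3, 103 and 118 CPM with TM, against 145, 199 and 182 CPM in controls. The treated libraries were above all controls in Perk KO and below all controls in WT. The response was 0.48 ± 0.12 in Perk KO (adjusted p = 0.0203) and -0.58 ± 0.13 in WT (adjusted p = 0.00476), and the responses differed by 1.03 ± 0.18 (adjusted p = 0.00108). The Perk KO rise did not pass without replicate 1 (0.38, adjusted p = 0.0638) or replicate 3 of the controls (0.53, adjusted p = 0.056) or replicate 3 of the treated libraries (0.45, adjusted p = 0.0829). With TM, Perk KO neurons were 2.03-fold above WT (1.02 ± 0.10, adjusted p = 0.000196), while the controls of the 2 genotypes overlapped (-0.08 ± 0.13, adjusted p = 0.71).

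In astrocytes, Stat3 fell with TM in both genotypes and further in WT. The level was 211, 199.8 and 188 CPM in TM-treated Perk KO astrocytes, against 394, 323 and 301 CPM in Perk KO controls. In WT astrocytes it was 115, 120.4 and 96.5 CPM with TM, against 336, 303 and 278 CPM in controls. No treated library reached a control of its genotype. The fall was -0.76 ± 0.12 in Perk KO (adjusted p = 0.00384) and -1.48 ± 0.13 in WT (adjusted p = 9.91e-05), a difference of 0.70 ± 0.17 (adjusted p = 0.00843). With TM, Perk KO astrocytes were 1.84-fold above WT (0.88 ± 0.11, adjusted p = 0.00022), and in controls the genotypes differed by 0.15 ± 0.13 (adjusted p = 0.446). The WT fall was smaller in neurons than in astrocytes by 0.73 ± 0.20 (adjusted p = 0.0167). Stat3 shares 72 exon bases with Stat5a on the opposite strand, and the library kit does not mark strand. Stat5a had 1259 counts over the 24 libraries, against 91700 for Stat3.

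Socs3, the feedback inhibitor, fell with TM in astrocytes of both genotypes. The level was 10.9, 10.7 and 13.1 CPM in TM-treated Perk KO astrocytes, against 50, 34.5 and 46.2 CPM in Perk KO controls. In WT astrocytes it was 8.07, 12.1 and 10.5 CPM with TM, against 40.2, 29.9 and 35.4 CPM in controls. All treated libraries were below all controls, and the treated groups of the 2 genotypes overlapped. The fall was 3.75-fold in Perk KO (-1.91 ± 0.16, adjusted p = 0.000141) and 3.48-fold in WT (-1.80 ± 0.18, adjusted p = 0.000192), and the responses differed by -0.14 ± 0.25, which did not pass (adjusted p = 0.711). Control Perk KO astrocytes differed from WT controls by 0.31 ± 0.16 (adjusted p = 0.225), which passed with the replicate block (0.30, adjusted p = 0.0189).

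In neurons every library had less Socs3 than any control astrocyte library. The level was 5.9, 9.67 and 8.83 CPM in TM-treated Perk KO neurons, against 5.57, 11.2 and 7.04 CPM in Perk KO controls. In WT neurons it was 4.12, 4.59 and 3.3 CPM with TM, against 5.98, 11 and 7.01 CPM in controls. The treated WT libraries were below their controls, and the Perk KO groups overlapped. The response was 0.09 ± 0.29 in Perk KO (adjusted p = 0.862) and -0.85 ± 0.25 in WT (adjusted p = 0.0214). The WT fall did not pass without replicate 2 of the controls (-0.57, adjusted p = 0.0716), replicate 1 (-0.86, adjusted p = 0.0573) or replicate 3 of the treated libraries (-0.72, adjusted p = 0.0756). The responses differed by 0.90 ± 0.42 (adjusted p = 0.128), which did not pass. It passed without replicate 2 of the Perk KO controls (1.23, adjusted p = 0.0435), with the replicate block (0.89, adjusted p = 0.0331) and with the block and GC correction (0.81, adjusted p = 0.0335). With TM, Perk KO neurons were above WT by 0.98 ± 0.24 (adjusted p = 0.0112).

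Tests of the difference between TM responses called 3 members for genotype in neurons, against 29.8% of 15939 genes, 4 for genotype in astrocytes, against 34.4% of 15114 genes, and 4 for cell type in WT, against 24.9% of 15712 genes. Stat3 and Lifr were called in all 3. The remaining calls were Il6ra for genotype in neurons (-0.75 ± 0.25, adjusted p = 0.0422), Il6ra for cell type (1.49 ± 0.32, adjusted p = 0.00514), Jak1 for genotype in astrocytes and for cell type, and Tyk2 for genotype in astrocytes. The Il6ra call for genotype was lost without any 1 of 7 of the 12 libraries, namely replicates 1 and 3 of the WT controls and of the TM-treated WT neurons, replicates 2 and 3 of the Perk KO controls and replicate 2 of the TM-treated Perk KO neurons (adjusted p of 0.0675 to 0.113). It was also lost with DESeq2 (-0.68, adjusted p = 0.0527), with DESeq2's size factors in edgeR (-0.68, adjusted p = 0.0677) and with no filter on low counts (-0.74, adjusted p = 0.0828). The cell type test missed the threshold for Il6st (0.37 ± 0.17, adjusted p = 0.12), Tyk2 (0.40 ± 0.18, adjusted p = 0.121) and Socs3 (0.78 ± 0.33, adjusted p = 0.108), each of which passed without 1 library. These were replicate 3 of the WT control astrocytes for Il6st (0.49, adjusted p = 0.0293), replicate 1 of the same group for Tyk2 (0.61, adjusted p = 0.0195) and replicate 2 of the WT control neurons for Socs3 (1.08, adjusted p = 0.0223). With no filter on low counts Il6st (0.52, adjusted p = 0.0449) and Socs3 (0.92, adjusted p = 0.0311) passed too, as did Il6st with GC correction (0.47, adjusted p = 0.0408). Whether the genotype effect on the TM response itself differed between neurons and astrocytes was tested over all 24 libraries, and edgeR called 0 of 8 members, against 5.51% of 15924 genes. At an unadjusted p under 0.05, 2 members passed, and DESeq2 called 1, Jak1 (0.45, adjusted p = 0.0248), which edgeR called too without replicate 1 of the TM-treated WT astrocytes (0.47, adjusted p = 0.0421). With GC correction and the block, Jak1 (0.45, adjusted p = 0.0366), Stat3 (0.45, adjusted p = 0.0423) and Socs3 (1.24, adjusted p = 0.0256) passed.

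In the authors' deposited table for TM-treated against control WT astrocytes, the log2 fold changes were -2.05 for Lifr (adjusted p = 2.01e-18), -1.47 for Stat3 (adjusted p = 5.64e-20) and -1.78 for Socs3 (adjusted p = 1.49e-15). In the authors' deposited table for TM-treated Perk KO against TM-treated WT neurons they were 1.78 for Lifr (adjusted p = 3.46e-13), 1.02 for Stat3 (adjusted p = 7.66e-13) and 0.99 for Socs3 (adjusted p = 0.00282).

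The other genes of the pathway were read from 5 lists of ligands (10 genes), other receptors (7), other JAK and STAT genes (6), inhibitors (16) and reported STAT3 targets (20). Gfap is both in the list of targets and among the astrocyte markers. In TM-treated WT astrocytes against WT controls, 0 other JAK and STAT genes were higher and 4 of 5 tested lower. Among them were Jak3 (-2.67 ± 0.19, adjusted p = 4.45e-05), a JAK best known from lymphocytes, Stat5b (-1.13 ± 0.12, adjusted p = 0.000186) and Stat2 (-1.88 ± 0.38, adjusted p = 0.00431). Of the other receptors, 3 of 7 tested were lower, namely Osmr (-0.69 ± 0.13, adjusted p = 0.00325) for oncostatin M, Il11ra1 (-0.77 ± 0.18, adjusted p = 0.00805) and Cntfr (-0.99 ± 0.25, adjusted p = 0.012). Of the STAT3 targets, 6 of 20 were higher and 9 lower, where 25% of 14907 genes were higher and 27.7% lower. The lower ones were led by the astrocyte filament gene Gfap (-4.29 ± 0.38, adjusted p = 9.77e-05), Cebpd (-1.25 ± 0.11, adjusted p = 0.00011) and the adhesion molecule gene Icam1 (-1.45 ± 0.13, adjusted p = 0.00011). Of the 16 inhibitors, 3 were higher and 2 lower, with the phosphatase gene Ptpn2 (0.67 ± 0.13, adjusted p = 0.00364) and Socs6 (0.59 ± 0.12, adjusted p = 0.00524) higher and Socs1 (-1.10 ± 0.27, adjusted p = 0.0101) lower. Ligands had 1 call of 6 tested, Ctf1 (-1.13 ± 0.24, adjusted p = 0.00521), which encodes cardiotrophin 1. With the replicate block, 1 ligand was higher and 2 lower and 4 inhibitors were higher and 5 lower, where 31.6% of all genes were higher and 34.1% lower.

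In TM-treated Perk KO astrocytes against Perk KO controls, 0 of 5 other JAK and STAT genes were higher and 2 lower, namely Stat2 (-1.89 ± 0.17, adjusted p = 0.000167) and Jak3 (-0.90 ± 0.13, adjusted p = 0.00279). Gfap fell here as well. It had 65.9, 103 and 50.3 CPM in TM-treated Perk KO astrocytes, against 887, 1087 and 629 CPM in Perk KO controls, and 26.5, 47.2 and 21.5 CPM in TM-treated WT astrocytes, against 689, 759 and 389 CPM in WT controls. All treated libraries were far below all controls, with a log2 difference in Perk KO of -3.56 ± 0.29, adjusted p = 0.000118. Of the 20 STAT3 targets, 5 were higher and 2 lower in Perk KO, where 5.73% of 15164 genes were higher and 4.33% lower, with Cebpd lower (-1.05 ± 0.09, adjusted p = 0.000133) and the chemokine gene Ccl2 higher (1.72 ± 0.22, adjusted p = 0.00132). Osmr was the 1 receptor of 6 called, lower by -0.97 ± 0.13, adjusted p = 0.00167, Ptpn11 the 1 inhibitor of 16, lower by -0.37 ± 0.09, adjusted p = 0.0269, and edgeR called 0 of 5 ligands, with 0 at an unadjusted p under 0.05. With the replicate block, 6 targets were higher and 5 lower, 1 inhibitor was higher and 5 lower, and 1 receptor was higher and 1 lower, where 15.2% of all genes were higher and 13.2% lower.

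Some of the ligands differed by genotype in astrocytes. Il6 had 0.317, 1.17 and 1.63 CPM in TM-treated Perk KO astrocytes, against 7.56, 21.4 and 30.3 CPM in TM-treated WT astrocytes. In controls it had 0.749, 0.937 and 1.25 CPM in Perk KO, against 2.83, 9 and 13 CPM in WT. No Perk KO library reached a WT library, and in neurons no library was above 0.175 CPM. The log2 differences were -4.23 ± 0.62, adjusted p = 0.000456 with TM and -3.07 ± 0.54, adjusted p = 0.0141 in controls. Lif was also lower in Perk KO, by -1.79 ± 0.37, adjusted p = 0.00268 with TM and -1.31 ± 0.23, adjusted p = 0.0141 in controls. Of 6 ligands tested, 1 was higher and 3 lower with TM, where 32.1% of all genes were higher and 31.2% lower. In controls 0 were higher and 2 lower, where 4.71% of all genes were higher and 10.2% lower. Between the controls, leaving out single libraries gave 50 to 4138 genes called, against 2260 with all libraries, and the ligands were not counted in that way. Ctf1 was the ligand that was higher with TM (1.43 ± 0.21, adjusted p = 0.000458).

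With TM, Perk KO astrocytes also had 2 receptor genes of 7 higher than WT, Il11ra1 (1.35 ± 0.13, adjusted p = 5.21e-05) and Cntfr (1.91 ± 0.23, adjusted p = 0.000172), and 1 lower, Osmr (-0.48 ± 0.14, adjusted p = 0.0155). Of 5 other JAK and STAT genes, 3 were higher and 1 lower, with Jak3 (2.10 ± 0.19, adjusted p = 4.13e-05) and Stat5b (1.02 ± 0.11, adjusted p = 0.000105) higher and Stat2 (-1.08 ± 0.33, adjusted p = 0.0195) lower. Of 16 inhibitors, 2 were higher and 8 lower, led by Socs6 (-1.22 ± 0.12, adjusted p = 6.54e-05), Ptpn2 (-1.02 ± 0.11, adjusted p = 0.000108) and Socs2 (-2.30 ± 0.34, adjusted p = 0.000463). The 20 STAT3 targets divided into 7 higher and 8 lower, where 32.1% of 14927 genes were higher and 31.2% lower, with Vim (1.22 ± 0.11, adjusted p = 3.31e-05) and the cyclin gene Ccnd1 (1.43 ± 0.13, adjusted p = 4.01e-05) higher and Hif1a (-1.06 ± 0.11, adjusted p = 7.97e-05) lower. In control astrocytes, 0 targets were higher in Perk KO and 8 of 20 lower, where 4.71% of 15196 genes were higher and 10.2% lower. Leaving out single libraries gave 50 to 4138 genes called in this comparison, against 2260 with all libraries. The lists were not counted in that way, so how far these calls rest on 1 library was not tested. With the replicate block 1 target was higher and 10 were lower, and 1 ligand was higher and 3 were lower, where 18.1% of all genes were higher and 19.6% lower. Without the block the lower targets were led by Icam1 (-1.55 ± 0.12, adjusted p = 0.00261), Ccl2 (-2.74 ± 0.31, adjusted p = 0.0066) and Bcl3 (-1.70 ± 0.21, adjusted p = 0.00902), while Stat3 and, without the block, Socs3 were not called there.

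**Figure D4:**
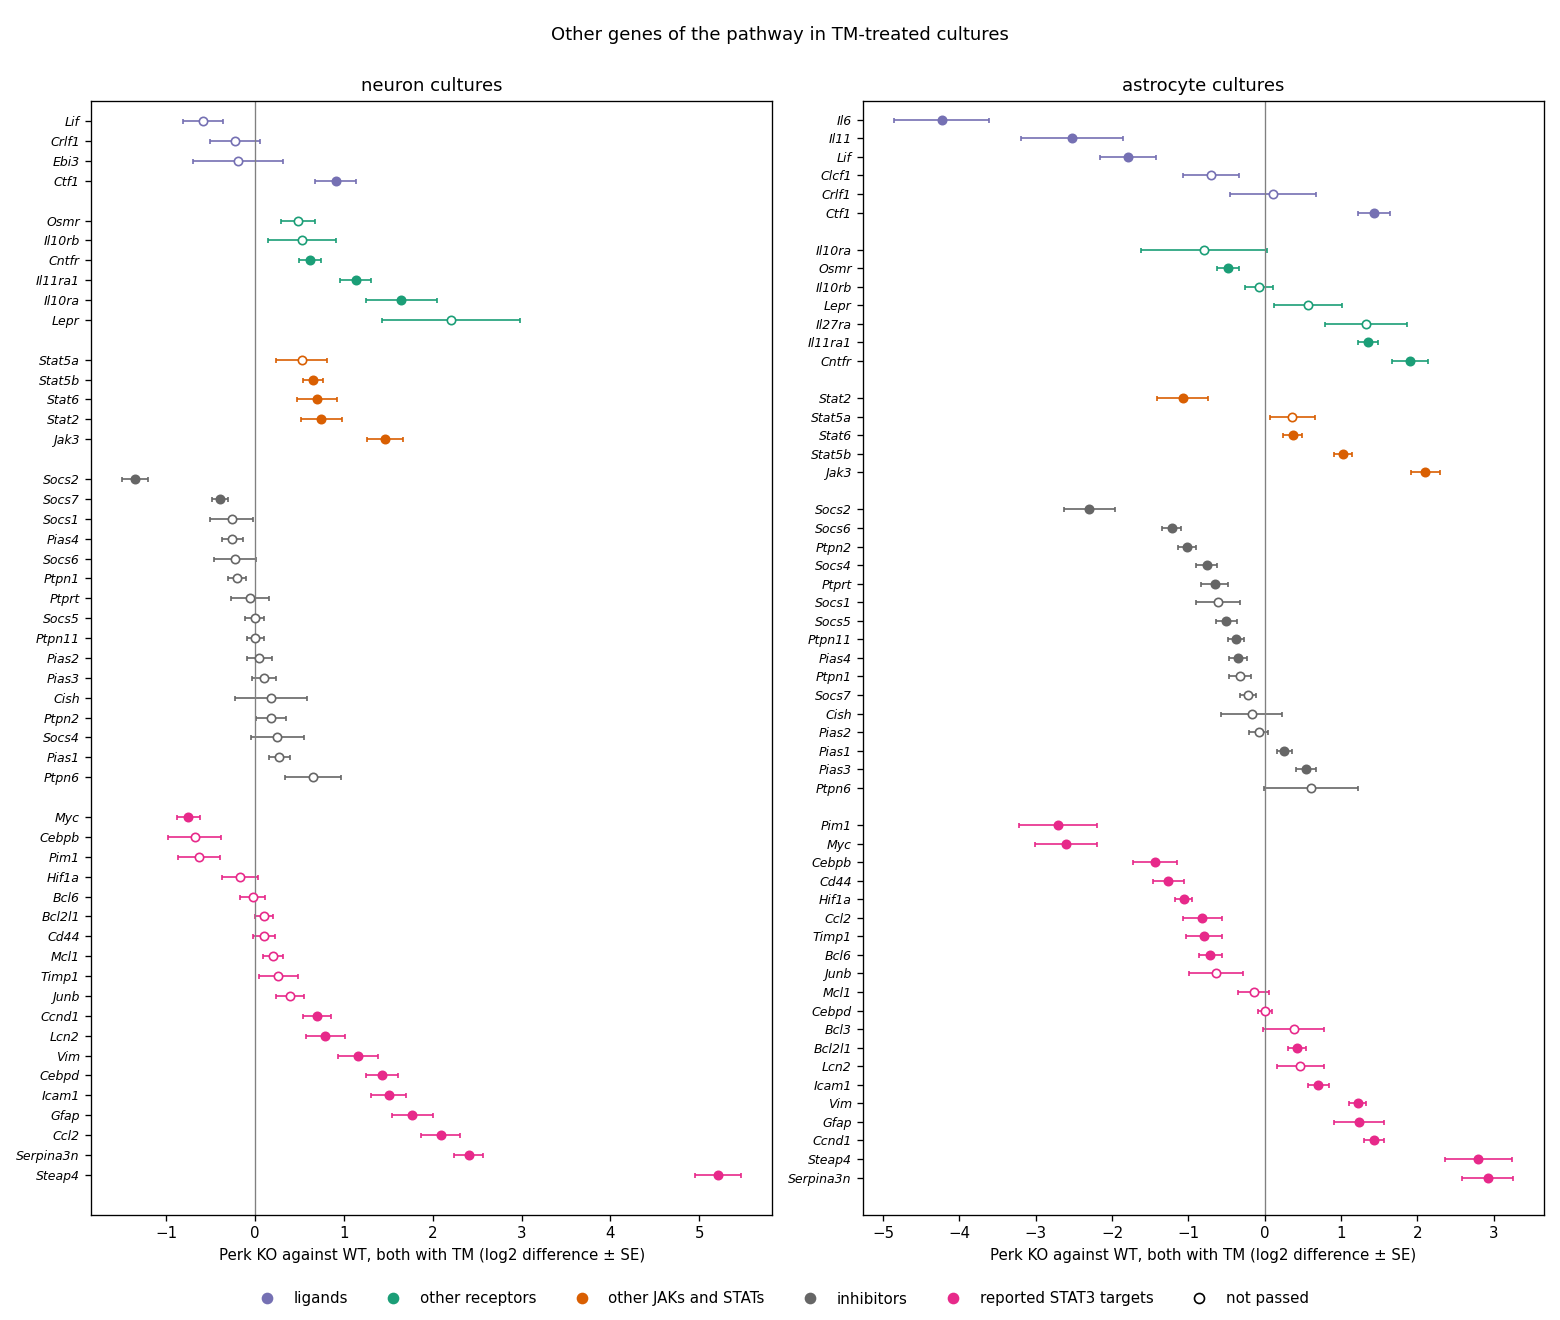
Log2 difference of TM-treated Perk KO over TM-treated WT cultures (x axis, with SE as bars) for the tested genes of the 5 lists, neurons left and astrocytes right, filled where the edgeR adjusted p was under 0.05. In neurons the called targets other than Myc lie to the right of 0 and Steap4 farthest at 5.21. In astrocytes the called targets lie on both sides. Among the genes of all 5 lists, the ligand gene Il6 lies farthest left there, at -4.23.

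In TM-treated neurons, Perk KO against WT had 9 of 19 STAT3 targets higher and 1 lower, where 20.7% of 16026 genes were higher and 19.4% lower. With the replicate block 10 were higher and 3 lower, where 24% of all genes were higher and 22.8% lower. Steap4, a metalloreductase gene, had 74.3, 66.6 and 56 CPM in TM-treated Perk KO neurons, against 2.17, 1.96 and 1.07 CPM in TM-treated WT neurons. The groups lay far apart, with a log2 difference of 5.21 ± 0.26, adjusted p = 1.8e-05. Serpina3n (2.40 ± 0.16, adjusted p = 3.44e-05), a marker of reactive astrocytes, and Ccl2 (2.09 ± 0.22, adjusted p = 0.000224) followed. Of 5 other JAK and STAT genes, 4 were higher and 0 lower, led by Jak3 (1.46 ± 0.20, adjusted p = 0.000738), Stat5b (0.65 ± 0.11, adjusted p = 0.00235) and Stat2 (0.75 ± 0.23, adjusted p = 0.0317). Of 6 other receptors, 3 were higher, namely Il11ra1 (1.14 ± 0.17, adjusted p = 0.00133), Cntfr (0.62 ± 0.13, adjusted p = 0.00569) and Il10ra (1.64 ± 0.40, adjusted p = 0.012). Of 16 inhibitors, 0 were higher and 2 lower, Socs2 (-1.35 ± 0.14, adjusted p = 0.000235) and Socs7 (-0.40 ± 0.09, adjusted p = 0.00829), and Ctf1 was the 1 ligand of 4 called (0.90 ± 0.23, adjusted p = 0.0155). All 10 astrocyte markers and 5 of 6 tested microglia markers were higher in the same comparison, and their part in these counts was not tested.

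Split by genotype, TM-treated Perk KO neurons against their controls had 8 of 20 targets higher and 1 lower, where 13.1% of 16197 genes were higher and 10.8% lower, led by Ccl2 (3.21 ± 0.22, adjusted p = 0.000202), Steap4 (3.01 ± 0.26, adjusted p = 0.000428) and Icam1 (1.25 ± 0.18, adjusted p = 0.00292). The receptors Il11ra1 (0.80 ± 0.16, adjusted p = 0.0105) and Cntfr (0.51 ± 0.14, adjusted p = 0.0309) were higher, 2 of 6 tested, and 3 of 16 inhibitors were lower, Socs2 (-1.15 ± 0.14, adjusted p = 0.00135), Socs5 (-0.59 ± 0.11, adjusted p = 0.00682) and Ptpn1 (-0.34 ± 0.09, adjusted p = 0.0322). Of 4 ligands and 5 other JAK and STAT genes, edgeR called 0, with 2 and 1 at an unadjusted p under 0.05. TM-treated WT neurons against their controls had 8 targets higher and 7 lower of 20, where 27% of 15546 genes were higher and 24.8% lower, with Cebpb higher (2.43 ± 0.20, adjusted p = 2.64e-05) and Gfap (-1.31 ± 0.10, adjusted p = 1.88e-05) and Ccnd1 (-1.18 ± 0.12, adjusted p = 7.74e-05) lower. Of 5 other JAK and STAT genes, 3 were lower there, namely Stat2 (-0.85 ± 0.17, adjusted p = 0.00287), Stat5b (-0.49 ± 0.10, adjusted p = 0.00325) and Jak3 (-0.91 ± 0.20, adjusted p = 0.00571). Osmr was the 1 receptor of 4 called, higher by 0.56 ± 0.17, adjusted p = 0.0225, and of 16 inhibitors 2 were higher and 3 lower, with Socs6 higher (0.79 ± 0.21, adjusted p = 0.0135) and Socs5 (-0.66 ± 0.09, adjusted p = 0.000369) and Ptpn1 (-0.40 ± 0.09, adjusted p = 0.00533) lower.

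The genes most like Stat3 across the 12 libraries of a cell type, by Pearson's r of log2 CPM, were Tmem63b (0.967), Bmp1 (0.962) and Phlpp1 (0.961) in neurons and Dbndd2 (0.989), Ptprf (0.988) and Syt11 (0.987) in astrocytes. Those most like Socs3 were Col6a2 (0.917), Tspan18 (0.905) and Cdhr1 (0.885) in neurons and Id3 (0.977), Ak5 (0.975) and Chst11 (0.974) in astrocytes. Over all genes compared, the 99th percentile of r with Stat3 was 0.907 in neurons and 0.957 in astrocytes. With Socs3 it was 0.781 in neurons and 0.884 in astrocytes. All these r values describe 4 groups of 3 libraries that share treatment and genotype.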

How the data were processed

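RNA was sequenced from 24 libraries, 3 in each of 8 groups of cell type, genotype and treatment. Per the submitters' processing notes, fastp, HISAT2, featureCounts, DESeq2 and the build GRCm38.p6 were used. Their versions and the annotation release are not given in the sources used here. Raw read counts per gene come from 8 tables that the authors deposited, each of 2 groups, and were the values tested. The deposited tables also hold the authors' gene length, used for levels per kb, and their log2 fold change and p-value per gene. Libraries were matched to samples by column names, and 0 counts differed where a library is in 2 tables. Chi-square per gene between replicates was 7.06 to 70.6, above sampling noise.

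Tests were run in R 4.3.3 with edgeR 4.0.16 (TMM, quasi-likelihood F test), each pair of groups on its own 6 libraries, interactions on 12 or 24. Genes averaging 10 counts or more entered, with Benjamini-Hochberg adjustment over all of them. SE is the log2 difference divided by the square root of F. On simulated counts with 200 changed genes, 195 were called for TM in WT neurons at a log2 change of 1. In the measured libraries 8055 genes were called in that comparison. How many smaller changes, or changes in other comparisons, would be called is not given here. Alternatives were DESeq2 1.42.0, its size factors in edgeR, no filter, a correction for GC content, the replicate number as a block, and leaving out each library. Pathway and marker lists were also counted with the block, and these counts are printed only in part. Numbers were taken as pairing the samples where every pair's deviations correlated above 0.1, which held for all pairs of astrocyte groups (0.32 to 0.68) and for neurons between genotypes (0.22 to 0.60), not across treatments in neurons. From each pathway list, the text names the 3 called genes with the smallest p, and likeness was taken over protein-coding genes averaging 100 counts or more. Some results are not reported here. Members and lists were chosen with earlier results of these data known. Promoter sequences are from RefSeq, and the kit does not mark strand.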

Additional observations from a re-analysis of the deposited data

Results flagged for a closer look

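The TM response differed between groups for 11 tests of a member, each a test of the difference itself. Among all genes, the same tests called 29.8% for genotype in neurons, 34.4% for genotype in astrocytes and 24.9% for cell type in WT. The test of whether the genotype effect differed between cell types called no member and 5.51% of all genes. Whether members were called more often than other genes was not tested. In neurons, the Perk KO response minus the WT response was 1.03 for Stat3, 1.16 for Lifr and -0.75 for Il6ra (log2). In astrocytes it was 0.70 for Stat3, 1.99 for Lifr, 0.56 for Tyk2 and -0.35 for Jak1. In WT cultures, the neuron response minus the astrocyte response was 0.73 for Stat3, 0.85 for Lifr, 1.49 for Il6ra and -0.53 for Jak1. The Stat3 and Lifr differences by genotype held in both cell types under every alternative run. Those of Il6ra in neurons and of Jak1 and Tyk2 in astrocytes each lost the call without any of several single libraries. Il6ra in neurons was also not called by DESeq2 (adjusted p = 0.0527), and Tyk2 in astrocytes not with GC correction (adjusted p = 0.141).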

How the results depend on the processing

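Of 45 member calls, 44 were kept with DESeq2, 44 with its size factors, 42 with GC correction, 43 with GC correction and the replicate block, 40 with no filter and 42 with the block. No called value changed sign under any alternative run, and 33 of the 45 held without any 1 library. The number of members called moved as follows. Between control Perk KO and WT neurons it was 1, with GC correction 0, and 0 to 2 without single libraries. Between TM-treated Perk KO and WT neurons it was 3, and 5 with the replicate block, alone or with GC correction. Between control Perk KO and WT astrocytes it was 2, and 0 to 2 without single libraries. For genotype by TM in astrocytes it was 4, with no filter 2, and 2 to 3 without single libraries. For the 3-way test it was 0, with DESeq2 1, with GC correction and the block 3, and 0 to 1 without single libraries. Leaving out single libraries gave at fewest 2 and at most 4 members for TM in Perk KO neurons and in Perk KO astrocytes, and 3 to 5 for cell type by TM. Where numbers do not pair the samples, the replicate block removed the calls of Jak1 (adjusted p = 0.0734) and Lifr (0.051) between cell types and of Il6ra (0.0515) for genotype by TM in neurons, and added Socs3 (0.0331) there and Il6st (0.0416) for cell type by TM. The following values not called changed sign. With GC correction, Socs3 for TM in Perk KO neurons was -0.00196, and Tyk2 and Stat3 between control neurons were 0.035 and 0.063 (0.038 and 0.068 with the block as well). Socs3 there was -0.00979 with no filter. Tyk2 between TM-treated neurons was -0.00415 with no filter and -0.00453 with GC correction and the block, and for genotype by TM in neurons -0.038 with GC correction and -0.044 with the block as well. Without single libraries, the range crossed 0 for TM in Perk KO neurons for Jak2 (-0.17 to 0.23), Socs3 (-0.12 to 0.41) and Lifr (-0.11 to 0.34), for genotype in control neurons for Stat3 (-0.19 to 0.028) and Socs3 (-0.31 to 0.31), in TM-treated neurons for Jak2 (-0.29 to 0.075) and Tyk2 (-0.033 to 0.076), in control astrocytes for Il6st (-0.19 to 0.020) and in TM-treated astrocytes for Tyk2 (-0.073 to 0.036). It also did for TM in WT astrocytes for Tyk2 (-0.041 to 0.14), in Perk KO astrocytes for Il6st (-0.046 to 0.15) and Lifr (-0.12 to 0.031), for genotype by TM in neurons for Tyk2 (-0.0092 to 0.14) and in astrocytes for Il6st (-0.19 to 0.0101) and Il6ra (-0.48 to 0.00427), and for Jak2 for cell type by TM (-0.38 to 0.0499) and in the 3-way test (-0.22 to 0.18). Over all genes, the 3-way test called 878 genes, with DESeq2 1531, with the block 1842 and with GC correction and the block 2476, and between control astrocytes 5731 with the block, of which 2754 were higher. Without it 2260 were called, of which 716 were higher. Leaving out single libraries gave 50 to 4138 genes there. Between control neurons it gave 257 to 5414 genes, where 3370 were called with all libraries. With no filter the median of all genes was 0.14 between TM-treated neurons and 0.12 for cell type by TM. The causes were not tested. Scaling within a cell type moved 6 of 64 group levels by more than 1 SD. Counting error is relatively largest in the groups with the fewest counts. Mean counts were 70.3 for Lifr in TM-treated WT astrocytes, 77.3 for Socs3 in TM-treated WT neurons and 97.7 for Il6ra in WT control neurons. Its share in the spread between these libraries was not tested.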
